A study of Mus musculus with 8 samples.

Results

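The cytosolic ribosomal protein genes were taken as the rows of the deposited expression table whose symbol starts with Rpl or Rps followed by a digit, together with Rpsa, Rplp0, Rplp1 and Rplp2. The S6 kinases (Rps6k), Rps19bp1 and pseudogene symbols were dropped. This gave 84 genes of the 12701 in the table. They comprised 31 genes of the small subunit, 43 of the large subunit, 3 of the P stalk and 7 paralogs of them. Tests covered genes that reached 1 scaled CPM, the unit explained with the first values, in 2 or more libraries. Of the 84, 80 did so, and of all genes 11273. The 4 genes under this filter were Rpl24, Rpl23a, Rpl39l and Rps27rt. Of the 79 proteins listed for the mammalian ribosome, 77 had genes among the members. Fau, whose product is a fusion of a ubiquitin-like protein with a ribosomal protein, was in the table but outside the symbol rule.

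A ribosome translates messenger RNA into protein. Its small (40S) subunit binds the messenger RNA and decodes it, and its large (60S) subunit forms the peptide bonds. Rplp0, Rplp1 and Rplp2 form the P stalk of the large subunit, which recruits the elongation factors. Messenger RNAs of ribosomal proteins begin with a run of pyrimidines, the 5′ terminal oligopyrimidine (TOP) tract, through which their translation follows mTOR signaling. In macrophages, as in other cells, the proteins are made in matched amounts and those left unassembled are degraded, so transcript levels and the amount of ribosomes are separate quantities. Only transcripts were measured here.

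RNA was sequenced from alveolar macrophages, the tissue-resident macrophages (TRMs) of the lung, sorted by flow cytometry from C57BL/6 mice. The naive mice carried no tumor (3 libraries). The tumor-bearing mice had received KP or KP-GFP cells, a mouse lung tumor line, by tail vein injection, and their macrophages are labelled d15 (2 libraries) or d35 (3 libraries) after transplantation. The growth protocol allows tumor foci to form for 15 to 30 days, so the d35 label lies outside the period it gives. All groups share the strain and the sorting, and each library was made with a low-input SMART-Seq v4 kit from 1 ng of RNA of 20000 cells. The tumors grew from injected cells of a line, in lungs seeded through the blood. The labels give no age. They also leave unsaid whether replicate libraries are different mice, and the p-values reflect only how far these libraries scatter, which could be technical scatter. The d15 columns carry numbers that differ from those of the sample titles, so these libraries are called d15 A and d15 B.

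Stretches of 30 bases around the annotated transcription starts were searched for runs of pyrimidines, the letters that make up the TOP tract. They are shown for genes that rose in a comparison, for the pair of Rps27 and Rps27l, and for Rps6 and the stalk gene Rplp2, which are described for their roles and passed in no comparison. The sequences are RefSeq's (mouse build GRCm38.p6), 5′ to 3′ on the strand of the gene, with 15 bases before and 15 from the start on. Capitals mark an unbroken run of at least 8 C or T that reaches within 10 bases of the start. The first 7 hold such a run and the last 4 do not. The run of Rps27l lies wholly before the annotated start.
Rpl18, chr7:45718056-45718085, plus strand: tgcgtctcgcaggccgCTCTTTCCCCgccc
Rpl7a, chr2:26910792-26910821, plus strand: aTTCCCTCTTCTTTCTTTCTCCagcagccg
Rps6, chr4:86857353-86857382, minus strand: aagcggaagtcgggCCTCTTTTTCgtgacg
Rps10, chr17:27635230-27635259, minus strand: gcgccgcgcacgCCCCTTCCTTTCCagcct
Rps27, chr3:90213634-90213663, minus strand: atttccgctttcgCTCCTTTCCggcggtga
Rps27l, chr9:66946071-66946100, plus strand: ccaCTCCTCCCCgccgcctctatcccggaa
Rplp2, chr7:141447636-141447665, plus strand: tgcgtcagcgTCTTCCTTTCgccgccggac
Rpl19, chr11:98026695-98026724, plus strand: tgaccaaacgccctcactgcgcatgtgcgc
Rpl6, chr5:121204486-121204515, plus strand: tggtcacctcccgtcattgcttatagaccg
Rps2, chr17:24720048-24720077, plus strand: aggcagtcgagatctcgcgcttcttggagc
Rpsa, chr9:120127751-120127780, plus strand: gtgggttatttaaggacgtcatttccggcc

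Of the 84 members, 64 had a promoter entry, covering 250 bases before to 50 after the start. A run of at least 8 C or T near the start was present in 27 of these 64 (42.2%), beside 13.5% of all 27025 entries. The annotated start is often some bases away from the start that cells use, so the absence of a run says only that these letters are not in the window. The sequence CCGGAAG, searched on both strands of the 300 bases, stood in 39.1% of the members, beside 9.12% of all entries and 19.5% of the tested genes outside the members. The sequence AAGATGGC stood in 7.81% of the members, 2.88% of all entries and 4.97% of the tested genes outside the members. The sequence CTCTTTCC, which can overlap the pyrimidine run, stood in 14.1% of the members and 3.04% of all entries. Tested members with the pyrimidine run (27) had median log2 differences from naive of 0.40 at d15 and 0.34 at d35, and those without it (34) of 0.45 and 0.35.

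The deposited values are read counts scaled to 1e+06 of a library size that the authors adjusted, called scaled CPM here. The members together took 0.369%, 0.388% and 0.405% of the reads in the 3 naive libraries, 0.477% and 0.516% in d15 A and d15 B, and 0.422%, 0.400% and 0.520% in the 3 d35 libraries. All d15 and d35 libraries but 1 lay above all naive libraries, and the exception, d35 replicate 2, lay inside the naive range. As summed scaled CPM, this was 3723 ± 198 in naive (SD, n = 3), 4972 ± 243 in d15 (SD, n = 2) and 4651 ± 672 in d35 (SD, n = 3). Without the 5 members of highest value, Rpl4, Rplp0, Rps3, Rpl3 and Rpl10, the mean share of reads was 0.280% in naive, 0.367% in d15 and 0.332% in d35.

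**Figure D1:**
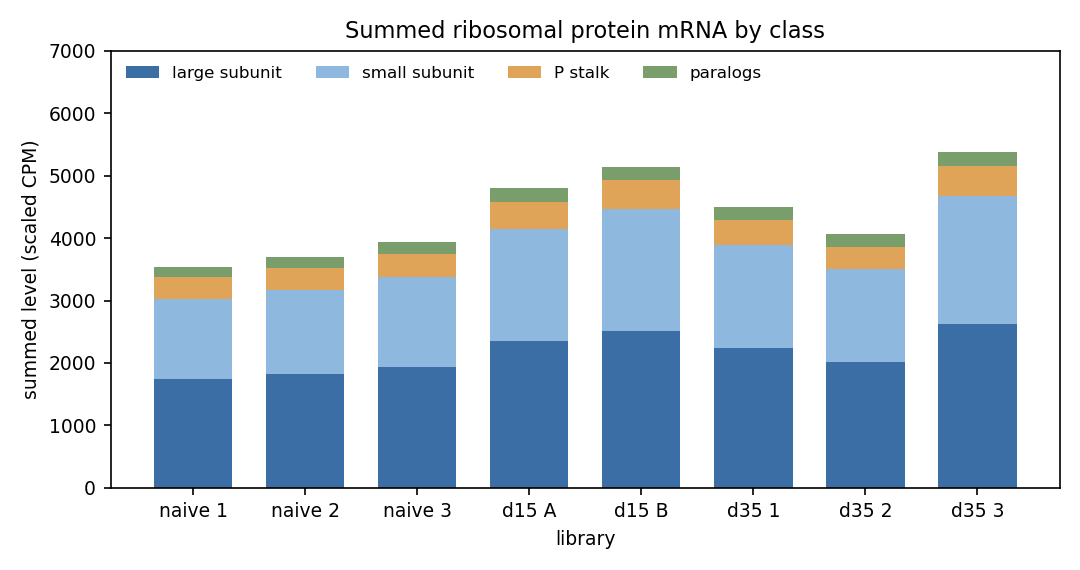
Summed level of the members in scaled CPM (bars from 0) in each of the 8 libraries, divided into small subunit, large subunit, P stalk and paralogs. The naive bars end between 3540 and 3933, the d15 bars at 4800 and 5144, and the d35 bars at 4505, 4063 and 5383.

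The members spanned a wide range of levels. Levels were divided by the length of the shortest complete coding transcript and averaged over all libraries. On this measure Rpl4 was highest at 234 scaled CPM per kb, followed by Rplp0 at 200, Rpl10 at 177, Rps9 at 164 and Rpl32 at 160. The order depends on the length chosen. For Rps3, at 117 here, that length was 1908 bases, while the median over its transcripts was 952. In the naive libraries Rpl4 ranged from 207 to 223 and Rplp0 from 173 to 191, so these neighbours did not overlap. Rpl10 (138 to 160) and Rps9 (133 to 142), the next in that order, did. At the low end, Rpl13a reached 2.75 scaled CPM per kb although its product is a core subunit of every large ribosomal subunit. Rpl24 had 2 to 15 reads per library and Rpl23a 7 to 19, and both encode core subunits as well. Ribosomal protein genes have many near-identical processed pseudogenes, and the sources used here do not say how reads matching several copies were counted. Levels of single members are therefore uncertain, and each gene is compared below with itself across libraries, as a share of a pair or within a sum. The pairs and sums carry the same uncertainty.

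Nearly the whole family stood higher in d15 macrophages than in naive ones. All 80 tested members had a log2 difference above 0, beside 51.9% of all tested genes. The members' median was 0.44 and their range 0.12 to 0.56, while the median over all genes was 0.01. After adjustment over all genes, 12 of the 80 rose (15%) and none fell, beside 2.37% of all tested genes that rose and 2% that fell (limma on log2 of scaled CPM plus 1, Benjamini-Hochberg adjusted p under 0.05). Both d15 libraries exceeded all 3 naive libraries for 78 of the 80, beside 25.9% of all tested genes, and the other 2 were Rpl10a and Rpl13a. No member lay wholly below naive, as 22.3% of all tested genes did. At an unadjusted p under 0.05 the count was 70 of 80, beside 2954 of all 11273 tested genes. In the authors' deposited table of this comparison, all 80 members had a log2 fold change above 0, with a median of 0.44, and 12 had an FDR under 0.05, of 389 such genes in all.

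Among small subunit genes, 6 of 31 rose, among them Rps2, Rps14, Rps20 and Rpsa. Rps14, a platform protein, measured 62.7, 69.1 and 74.0 in naive and 92.7 and 109 in d15. The groups did not overlap, and the log2 difference was 0.55 (SE 0.13, limma adjusted p = 0.0445). Rpsa, also known as the laminin receptor precursor, measured 77.2, 80.3 and 83.8 in naive and 105 and 114 in d15. Its log2 difference was 0.43 (SE 0.11, limma adjusted p = 0.0476). Rps6, the substrate of the S6 kinases downstream of mTOR, measured 45.9, 52.5 and 54.8 in naive and 64.3 and 70.4 in d15, a log2 difference of 0.40 that did not pass (limma adjusted p = 0.0768). Rps3, at the messenger RNA entry, measured 181, 182 and 208 in naive and 249 and 267 in d15, which also did not pass (0.44, limma adjusted p = 0.055).

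Among large subunit genes, 6 of 41 rose, namely Rpl6, Rpl7, Rpl10, Rpl12, Rpl18 and Rpl19. Rpl7 had the smallest adjusted p of all members. It measured 83.9, 82.9 and 87.1 scaled CPM in naive and 119 and 126 in d15, and both d15 values stood well clear of the naive spread. Its log2 difference was 0.53 (SE 0.10, limma adjusted p = 0.0226). Rpl18 measured 41.0, 39.8 and 42.9 in naive and 54.5 and 59.7 in d15 (0.46, SE 0.09, limma adjusted p = 0.0275). Rpl12, which sits at the base of the stalk, showed the largest difference of all members. It measured 21.8, 25.3 and 27.2 in naive and 35.1 and 38.4 in d15 (0.56, SE 0.13, limma adjusted p = 0.046). Rpl10, the late-joining protein whose insertion completes the large subunit, measured 111, 115 and 128 in naive and 148 and 176 in d15 (0.45, SE 0.11, limma adjusted p = 0.0476). Rpl5 and Rpl11, which with 5S RNA form the particle that binds the p53 regulator Mdm2, differed by 0.33 and 0.49 without passing (limma adjusted p = 0.0886 and 0.0502). The smallest differences belonged to Rpl10a (0.12), the paralog Rpl7l1 (0.21) and Rpl4 (0.26), and none of these passed. Rpl10a measured 18.5, 20.5 and 20.3 in naive and 23.0 and 20.3 in d15, so its groups overlapped.

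None of the 3 stalk genes passed at d15. Rplp0, the stalk's anchor, measured 240, 235 and 259 scaled CPM in naive and 296 and 303 in d15, and the groups did not overlap (0.29, SE 0.10, limma adjusted p = 0.0981). Rplp1 measured 57.8, 59.6 and 67.0 in naive and 84.4 and 93.8 in d15 (0.53, SE 0.14, limma adjusted p = 0.0598). Rplp2 measured 45.9, 47.4 and 48.9 in naive and 58.1 and 67.7 in d15 (0.40, SE 0.14, limma adjusted p = 0.103).

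The d15 calls depended on which libraries were in the fit, for the members and over all genes. With any 1 of the 3 naive libraries left out, no member passed. Over all genes 267 rose with all libraries, and 120, 40 and 58 without naive replicates 1, 2 and 3. Leaving out d35 replicate 3, which enters through the shared estimate of spread, gave 56 members and 619 genes in all. With d15 A or d15 B left out, the members' median was 0.49 or 0.38. The log2 difference was above 0 for every member in each of these fits.

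**Figure D2:**
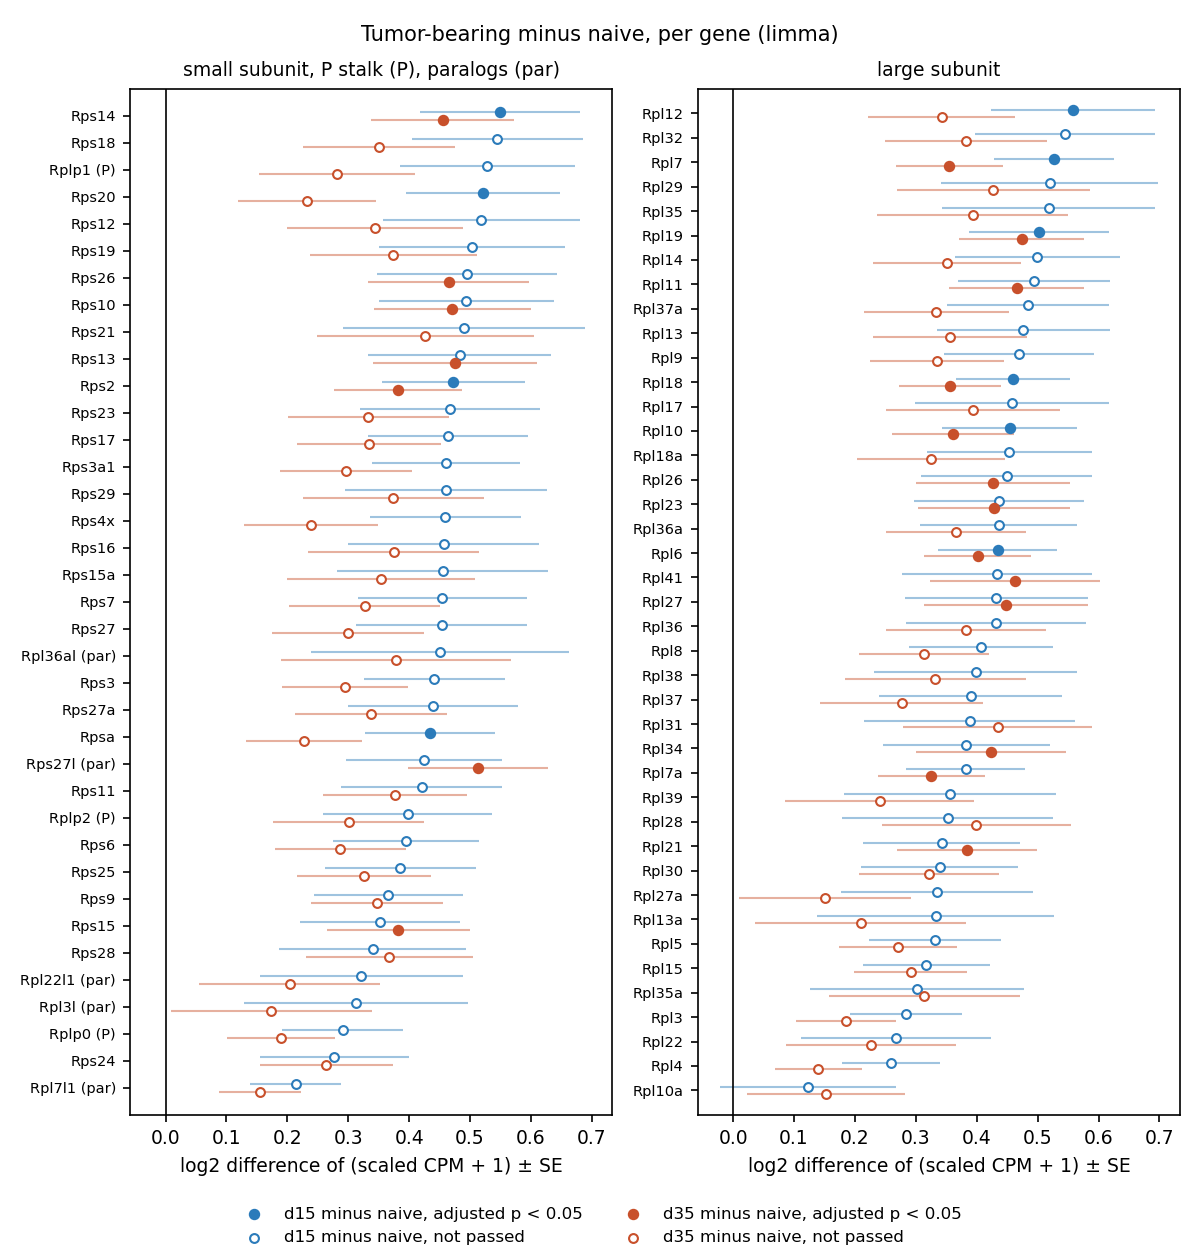
Log2 difference from naive of 78 of the 80 tested members on the log2(scaled CPM + 1) scale, at d15 and at d35, with bars for the SE and filled points for limma adjusted p under 0.05. All points lie right of 0, from 0.12 to 0.56 at d15 and from 0.14 to 0.51 at d35.

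At d35 the family also stood above naive, by somewhat less and with more spread between libraries. The comparison shares its naive libraries with that of d15, so the 2 are not independent. All 80 tested members had a log2 difference above 0, beside 49.6% of all tested genes. The members' median was 0.34 and their range 0.14 to 0.51, and the median over all genes was -0.002. Of the 80, 20 rose (25%) and none fell, beside 9.86% of all tested genes that rose and 6.32% that fell (limma adjusted p under 0.05). The d35 libraries lay wholly above the naive ones for 54 of the 80, beside 20.7% of all tested genes, and wholly below for none, beside 15.9%. At an unadjusted p under 0.05 the count was 65, beside 3654 of all 11273 tested genes.

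The genes that rose at d35 were 6 of 31 small subunit genes (Rps2, Rps10, Rps13, Rps14, Rps15 and Rps26), 13 of 41 large subunit genes (Rpl6, Rpl7, Rpl7a, Rpl10, Rpl11, Rpl18, Rpl19, Rpl21, Rpl23, Rpl26, Rpl27, Rpl34 and Rpl41), none of the 3 stalk genes and the paralog Rps27l. Rpl19 measured 34.3, 36.6 and 38.2 scaled CPM in naive and 49.9, 45 and 58.5 in d35. All 3 d35 values were above all naive values, and replicate 3 was highest (0.47, SE 0.10, limma adjusted p = 0.0147). Rpl6 measured 55.4, 58.8 and 60.2 in naive and 73.3, 71.6 and 87.1 in d35 (0.40, SE 0.09, limma adjusted p = 0.0149). Rpl11 measured 26.8, 29.9 and 31.0 in naive and 39.9, 35.5 and 47.5 in d35 (0.47, SE 0.11, limma adjusted p = 0.0207). Rps13, with the second largest difference, measured 24.5, 28.4 and 29.8 in naive and 36.8, 32.4 and 48.0 in d35 (0.48, SE 0.13, limma adjusted p = 0.0377). Rps14 differed by 0.45 (limma adjusted p = 0.0272), Rpl7 by 0.36 (0.0239), Rpl18 by 0.36 (0.0199) and Rpl10 by 0.36 (0.035).

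Of the 12 members that rose at d15, 7 also rose at d35. Rps20, Rpsa and Rpl12 were among those that did not pass at d35. Whether the d15 and d35 differences themselves differ is tested by the comparison of d35 with d15 further on. Rps20, of the subunit head, measured 28.4, 26.9 and 30.5 in naive, 39.2 and 43.8 in d15 and 31.8, 30.2 and 40.0 in d35 (0.23 at d35, limma adjusted p = 0.181). For Rps20, d35 replicate 2 fell inside the naive range. The stalk gene Rplp1 measured 70.4, 63.5 and 93.7 in d35, with replicate 2 inside the naive range (0.28, limma adjusted p = 0.156). The smallest d35 differences were those of Rpl4 (0.14), Rpl10a (0.15) and Rpl27a (0.15).

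The 3 d35 libraries stood apart from each other across the family. Replicate 3 was the highest d35 library for 77 of 80 members and replicate 2 the lowest for 77. Against the naive mean, the median member stood at 0.28, 0.14 and 0.60 on the log2 scale in d35 replicates 1, 2 and 3, at 0.38 and 0.49 in d15 A and B, and at -0.08, 0.00 and 0.07 in naive replicates 1, 2 and 3. With d35 replicate 3 left out, 3 members passed at d35 and the median difference was 0.21. With replicate 2 left out, 60 passed. With replicate 1 left out, 8 passed, and with naive replicate 1 or 2 left out none did. Leaving out naive replicate 3 gave 8, and leaving out either d15 library left the members' median at 0.34. Over all genes 1112 rose at d35 with all libraries. Without d35 replicates 3, 2 and 1 this number was 632, 1346 and 647. Without naive replicates 1, 2 and 3 it was 535, 457 and 656.

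**Figure D3:**
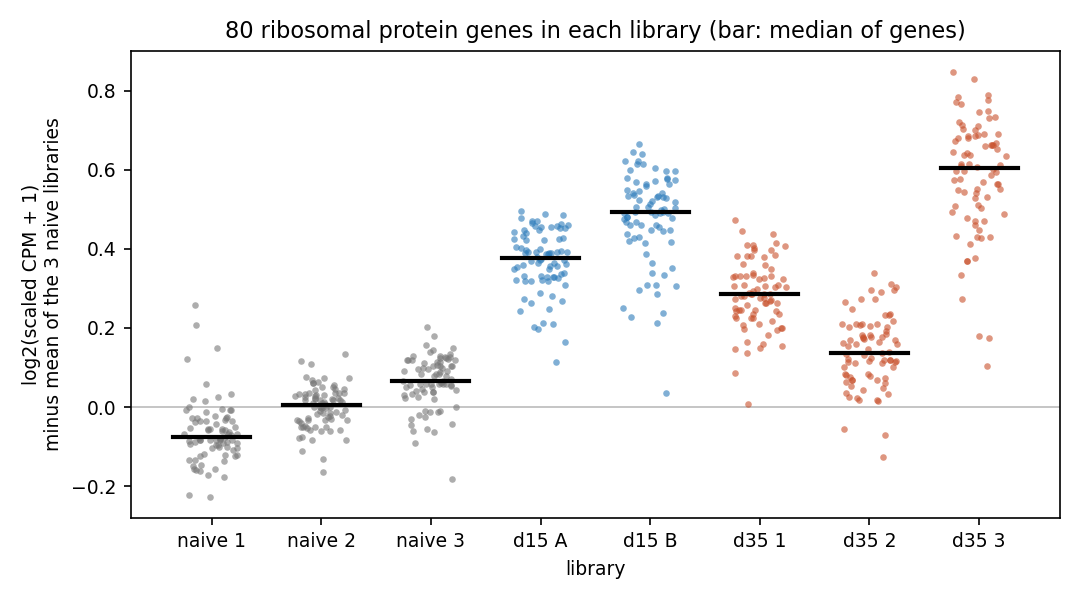
Each member's log2(scaled CPM + 1) minus its mean over the 3 naive libraries, in each of the 8 libraries, with the median of the members marked. The medians are -0.08, 0.00 and 0.07 in naive, 0.38 and 0.49 in d15, and 0.28, 0.14 and 0.60 in d35.

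Between the tumor-bearing groups no member passed the test. Set against d15, the d35 difference was below 0 for 69 of 80 members and above 0 for 11, where 49.6% of all tested genes were above 0. The members' median was -0.09, and the differences ran from -0.29 for Rps20 (SE 0.13, limma adjusted p = 0.21) to 0.09 for Rps27l. No member lay wholly above the d15 libraries, beside 19% of all tested genes, and 2 lay wholly below, beside 19.5%. None passed in either direction (0%), beside 4.59% of all tested genes that rose and 2.8% that fell, and edgeR and DESeq2 called none either. At an unadjusted p under 0.05 there were 2 members, Rps20 among them, beside 2509 of all 11273 tested genes. The next smallest p-values belonged to Rpsa (-0.21, limma adjusted p = 0.289) and Rps4x (-0.22, 0.339), and Rplp1 had a difference of -0.25. On the high side Rpl28 and Rpl31 each differed by 0.05. With d35 replicate 3 left out, 2 members fell and the median was -0.20. With d35 replicate 2 left out the median was 0.003 and 42 of 80 were above 0, and with d15 B left out it was -0.03 and 33 were above 0. With all libraries and a correction for transcript length, described next, none of the 80 was above 0.

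Ribosomal protein transcripts are short, and in these libraries short transcripts of other genes were also higher in the tumor-bearing groups. The members' median transcript length was 776 bases, beside 2701 for all tested genes, and 74 of the 80 fell in the shortest of 5 length bins of genes. The median log2 difference at d15 was 0.18 in the shortest bin of other genes, 0.05, 0.00 and -0.06 in the next 3 and -0.15 in the longest. At d35 these medians were 0.19, 0.04, -0.01, -0.06 and -0.15. Of the other genes in the shortest bin, 79.2% had a log2 difference above 0 at d15 and 79.3% at d35, beside all 80 members. In that bin 4.98% of genes rose at d15 and 23% at d35, the latter close to the members' 25%. The order of the libraries was shared as well, since against naive the shortest bin stood at 0.17, 0.13 and 0.28 in d35 replicates 1, 2 and 3, where the members stood at 0.28, 0.14 and 0.60.

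Each library's log2 values were then corrected for their smooth trend on transcript length. After this the median member differed from naive by 0.22 at d15, beside 0.01 over all genes, with 79 of 80 above 0. Of the members 3 rose, Rps20 and Rpl7 among them, where 193 of 11217 genes with a length rose. The length used for Rps20 was 3706 bases, beside the members' median of 776. Unlike that of the median member, its difference was larger after the correction (0.58) than before (0.52). At d35 the corrected median was 0.07, beside -0.03 over all genes, with 56 of 80 above 0. No member passed there, where 656 of 11217 genes rose and 602 fell. Between d35 and d15 the corrected median was -0.17, beside -0.04 over all genes. Of the members 2 fell, among them Rplp1 by 0.34 (limma adjusted p = 0.0263), where 500 of 11217 genes fell. The length trend's part in the differences was not tested beyond this correction.

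**Figure D4:**
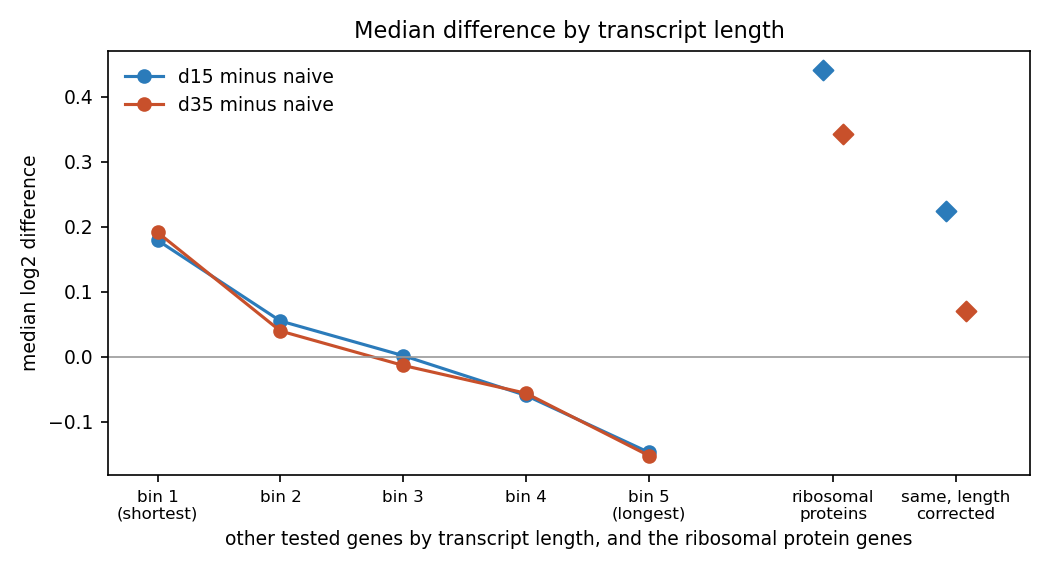
Median log2 difference from naive by bin of transcript length for genes outside the members, and for the members before and after the length correction, at d15 and d35. The medians fall from 0.18 and 0.19 in the shortest bin to -0.15 in the longest, and the members stand at 0.44 and 0.34 before and 0.22 and 0.07 after correction.

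The balance between the subunits was described by a ratio. The summed large subunit level divided by that of the small subunit was 1.37, 1.35 and 1.34 in naive, 1.306 and 1.297 in d15, and 1.36, 1.36 and 1.28 in d35. Both d15 values and d35 replicate 3 lay below the naive range, and these are the 3 libraries with the highest member share. The ratio was not tested, and the sums weigh the most abundant genes most. Rpl4 and Rpl3, the large subunit genes of highest value, differed at d15 by 0.26 and 0.28. The median gene differed by 0.46 in the small and 0.43 in the large subunit at d15, and by 0.34 and 0.36 at d35. Small subunit sums averaged 1356 scaled CPM in naive, 1870 in d15 and 1726 in d35, and large subunit sums 1836, 2433 and 2294. The stalk averaged 354, 451 and 415.

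Several members are paralogs that can stand in for a core protein or that work in ribosome assembly, and their share of the pair per kilobase of transcript was computed in each library. Rps27l, a p53-responsive paralog of Rps27, was the larger part of its pair. It measured 42.8, 47.1 and 48.8 scaled CPM in naive, 60.6 and 63.9 in d15 and 64.5, 56.7 and 79.7 in d35. It rose at d35 (0.51, SE 0.11, limma adjusted p = 0.0165), the largest d35 difference of all members, and differed by 0.42 at d15 (limma adjusted p = 0.0756). Rps27 differed by 0.45 at d15 and 0.30 at d35 without passing. The Rps27l share was 58.2%, 60.5% and 60.0% in naive, 59.8% and 58.0% in d15, and 63.3%, 63.1% and 62.7% in d35. The 3 d35 shares lay above all other libraries. This pair was singled out of 7 after its values were seen, and the share was not tested.

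Rpl7l1, related to Rpl7 and known as a ribosome assembly factor of the nucleolus, made up 55.3% to 56.8% of its pair in naive, 50.9% and 50.2% in d15, and 55.0%, 54.4% and 48.2% in d35. Every d15 and d35 share lay below the naive ones, which was also not tested. Its own level was 117, 123 and 125 scaled CPM in naive, 139 and 142 in d15 and 144, 132 and 130 in d35, and it did not pass (0.21 and 0.16, limma adjusted p = 0.105 and 0.137). Rpl22l1, whose canonical partner Rpl22 is known for its part in lymphocyte development, made up 17.6% to 23.5% of its pair in naive, 19.2% and 25.3% in d15 and 19.8% to 23.1% in d35, so the groups overlapped. Rpl36al made up 10.9% to 17.1%, 15.1% to 16.0% and 13.8% to 17.97% of the pair with Rpl36a. Rpl3l, known from striated muscle, made up at most 2.1% of its pair in any library. Rpl39l and Rps27rt, under the filter, made up at most 7.01% and 2.75%. These pairs share much of their sequence, so the shares carry the same uncertainty about reads that match both.

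**Figure D5:**
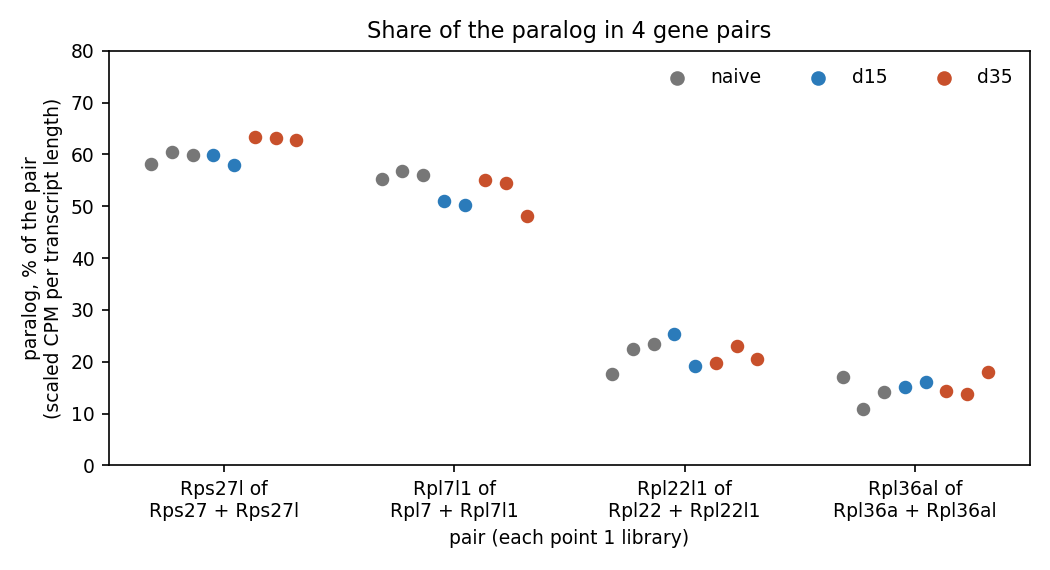
Share of the paralog in the summed level of its pair, per kilobase of transcript, in percent, with 1 point a library, for 4 pairs. The Rps27l points of d35 lie at 62.7% to 63.3%, above the naive and d15 points at 58.0% to 60.5%, and the Rpl7l1 points of both tumor-bearing groups, at 48.2% to 55.0%, lie below the naive ones at 55.3% to 56.8%.

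Genes whose products work with the ribosome are described by list, beside the members' medians of 0.44 and 0.34. Over all tested genes 2.37% rose and 2% fell at d15, and 9.86% rose and 6.32% fell at d35. Of 11 tested elongation factors none passed at d15 (median 0.23), and at d35 Eef1g, a subunit of the factor that reloads eEF1A, rose (0.38, limma adjusted p = 0.0162, median of the list 0.23). Of 36 initiation factors, Eif1b rose at d15 (0.54, limma adjusted p = 0.0385), and at d35 5 rose (13.9% of the list, near the share over all genes), Eif1, Eif1b, Eif3i, Eif3k and Eif6, the last a factor that keeps the subunits from joining early. The medians of that list were 0.14 and 0.13. Of 20 other messenger RNAs with a TOP tract, none passed at d15 (median 0.27). At d35 Eef1g, Tpt1 and Btf3 rose and Nap1l1, a histone chaperone, fell (-0.28, limma adjusted p = 0.0229), with a median of 0.23. Of 40 ribosome biogenesis genes, Nop16 rose at both times (0.40 and 0.39, limma adjusted p = 0.0439 and 0.0151) and Utp20 fell at d35, with medians of 0.10 and 0.04. Of 19 RNA polymerase I genes, none passed at d15. At d35 Polr1c, Polr1d and Polr2e rose and Polr1a, the largest catalytic subunit of that enzyme, fell (-0.34, limma adjusted p = 0.04), with a list median of 0.14.

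Among 25 tested genes of mTOR signaling and growth control none passed at d15 (median -0.12). At d35 Lamtor1 and Lamtor2 rose (0.29 and 0.38, limma adjusted p = 0.0258 and 0.0495), and the median of the list was -0.05. That is 8% of the list, below the 9.86% of all tested genes that rose. Both are known as parts of the complex that anchors mTOR to the lysosome. Myc, a transcription factor that drives ribosome production, measured 84.6, 95.2 and 96.3 scaled CPM in naive, 141 and 127 in d15 and 69.8, 95.4 and 108 in d35. Its d15 values lay above all others. It was lower at d35 than at d15 (-0.58, SE 0.15, limma adjusted p = 0.0441) and differed by 0.54 from naive at d15 without passing (limma adjusted p = 0.0638). Nap1l1 was also lower at d35 than at d15 (-0.36, limma adjusted p = 0.0204). The genes of highest value in these lists, Eif5a, Eif4g2, Vim, Ncl, Ubtf and Akt1, passed in none of the 3 comparisons.

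Fau, outside the symbol rule, did not pass. It measured 30.5, 29.8 and 31.9 scaled CPM in naive, 36.6 and 45.1 in d15 and 37.2, 32.9 and 49.2 in d35 (0.39 and 0.34, limma adjusted p = 0.138 and 0.113). As for most members, d35 replicate 3 was highest. Rack1, a scaffold of the small subunit without an Rps symbol, differed by 0.27 and 0.23 (limma adjusted p = 0.114 and 0.104). Mitochondrial ribosomal protein genes, which build the separate ribosome of that organelle, had medians of 0.25 at d15 and 0.24 at d35 over 77 tested genes. Of them 3 rose at d15 (3.9%, beside 2.37% of all tested genes) and 23 at d35 (29.9%, beside 9.86%). In the shortest length bin of genes outside the members, 4.98% rose at d15 and 23% at d35. The part of the length trend in this list was not tested. Its summed level was 2021, 2374 and 2380 on average in naive, d15 and d35.

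The 10 genes outside the members whose profile over the 8 libraries was most like the members' mean were Tbca, Ubl5, Tpt1, Supt4a, Ndufb10, Med28, Tomm7, Gpx1, Eef1b2 and H2-DMa. Their Pearson correlations ran from 0.994 to 0.984, as a description over 8 libraries that share depth and scaling. Their transcripts were 503 to 1658 bases long. Among the members the least alike to the mean were Rpl3l (0.559), Rpl13a (0.588), Rpl7l1 (0.725) and Rpl10a (0.763).

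The libraries held 27465745 to 39572173 reads in the table, and every tested member had at least 44 reads in each library. All 13 alveolar macrophage markers were present, with a summed level of 66297 to 71472 scaled CPM in naive, 85647 to 85740 in d15 and 91708 to 114124 in d35. Such a sum weighs the most abundant markers most. Per gene, 10 of 13 were above naive and 3 below at d15 (median log2 difference 0.26). At d35, 9 were above and 4 below (median 0.10). Of these 4 rose and 1 fell at d35 (38.5% called, beside 16.2% of all tested genes). Endothelial markers (10 of 10 in the table) summed to 277 to 359, 192 to 234 and 170 to 222. Of them 3 fell at d15 (30%, beside 2% of all tested genes) and 8 at d35 (80%, beside 6.32%). B cell markers (4 of 6) summed to 10.4 to 15.5, 5.22 to 5.64 and 3.78 to 6.93, and 1 of 4 fell at d15 and 3 at d35 (75%). Fibroblast markers (6 of 6, of which 5 were tested) summed to 9.92 to 28.8, 5.25 to 7.89 and 6.35 to 13.5, and 1 fell at each time. Monocyte and interstitial macrophage markers (11 of 11) summed to 1782 to 2041, 2000 to 2125 and 1979 to 2213, and 7 of 11 rose at d35 (63.6%, beside 9.86% of all tested genes). Epithelial and tumor markers (8 of 9) summed to 1402 to 1442, 1231 to 1352 and 1204 to 1326, and at d35 2 of 8 rose, by up to 3.63 on the log2 scale, and 1 fell. Neutrophil markers (4 of 7) summed to 68.8 to 86.8, 64.2 to 83.3 and 49.6 to 94.1, and 1 of 4 rose at d35. T and NK cell markers (8 of 9, of which 7 had a mean under 1) summed to 5.48 to 6.29, 3.43 to 3.75 and 3.96 to 7.74. Cell cycle genes (12 of 12) summed to 632 to 658, 640 to 772 and 441 to 577, and 3 of 12 fell at d35 (25%, beside 6.32% of all tested genes). The part of these shifts in the ribosomal protein differences was not tested, and in sorted bulk RNA fewer cells of a type and less RNA per cell cannot be told apart.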

How the data were processed

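The 84 ribosomal protein genes and all gene lists were chosen with earlier results of these data known. Per the submitters' processing notes, reads were aligned with STAR 2.5 to mm10 and edgeR was used. The sources used here do not give the counting program, annotation, strand setting or treatment of reads matching several copies. The deposited table holds a scaled signal (scaled CPM): (reads + 0.5) divided by a scaled library size, times 1e+06. Whole reads came back for 100% of values within 0.001. The authors' deposited table of d15 against naive gives log2 fold changes, the score columns of its test, and p-values with FDR.

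Values were compared as log2(scaled CPM + 1) with limma 3.58.1 with trend (R 4.3.3) over all 8 libraries, with Benjamini-Hochberg adjustment over 11273 genes. A log2 difference on this scale understates the change of low genes. Recovered reads went to edgeR 4.0.16 and DESeq2 1.42.0 as alternatives. Other alternatives were the pseudocount, the filter, the scaling, a correction for transcript length (loess span 0.3, GENCODE lengths), the groups in the fit, a replicate block and leaving out each library. Levels per kilobase and shares of pairs used the shortest complete coding transcript, and the length bins and length correction the median over a gene's transcripts. Genes were named by a rule: per comparison the 4 smallest adjusted p and the 3 largest and 3 smallest differences, the 6 highest and 3 lowest means, the stalk, Rpsa, the paralog pairs and members with known roles, and per list the highest mean and smallest adjusted p. Called members and called list genes are named as well, but a few genes are not reported here. The scripts were tested on simulated data.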

Additional observations from a re-analysis of the deposited data

How the results depend on the processing

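The direction of the family above naive held under every setting run at d15 except for 1 member under the length correction, and at d35 except under the length correction and for 1 of 84 members with no filter. The number of members passing moved far more. At d15 it was 12, and it became 6 with a pseudocount of 5, 5 with no filter, 19 with a value of at least 10, 5 with edgeR under TMM and under DESeq2 size factors, 41 with DESeq2, 3 with limma-voom, 59 with only the 2 groups compared, and 3 with the length correction (median 0.224). At d35 it was 20, and it became 37 with DESeq2, 9 with only the 2 groups compared, and 0 with the length correction (median 0.0703). Reads per 1e+06 of the table, added after seeing the data, gave 3 at d15 and 4 at d35. That scaling lowered the median of all genes at d35 to -0.107 and the members' median to 0.234, which stands 0.342 above it. The calls over all genes at d35 then numbered 663 higher and 1645 lower, beside 1112 and 712 in the deposited scaling. Leaving out 1 library gave 0 to 56 members at d15 and 0 to 60 at d35. Where a d15 library was left out, the lone other one was assumed to vary like the other groups. Between d35 and d15, 2 members fell with the length correction, and 0 to 2 when 1 library was left out. Without the 5 members of highest value the mean share was 0.28%, 0.367% and 0.332% in naive, d15 and d35.

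Whether replicate numbers shared by naive and d35 pair the libraries was not settled, because the correlations of their deviations were all weak. Same-numbered libraries correlated at -0.007, -0.046 and 0.147, and differently numbered ones at -0.1 to 0.103. With the replicate number as a block, 19 members rose at d35, 13 of them among the 20. With the block and the length correction together 0 passed (median 0.0703). The d15 columns are numbered 2 and 3 and the titles 1 and 2, so which column belongs to which title is unknown, and no block was fitted there.

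Under the length correction the d15 difference of Rpl10a turned to -0.11. At d35, where 56 of 80 members stayed above 0, the differences reported here that turned did so to -0.00946 for Rpl4, -0.053 for Rpl27a, -0.16 for Rpl10a, -0.0898 for Rplp1, -0.0895 for Rplp2, -0.14 for Rps27 and -0.0279 for Fau, with and without the block. The small d35 minus d15 differences of Rps27l, Rpl28 and Rpl31 turned to -0.00512, -0.0127 and -0.0403 with that correction. With 1 library left out they ranged from -0.0419 to 0.2, from -0.115 to 0.19 and from -0.104 to 0.182, lowest without d35 replicate 3 and highest without d35 replicate 2, and those of Rpl28 and Rpl31 were also below 0 without d15 A. In reads per 1e+06 of the table these were -0.00331 and -0.00346.

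The 4 members under the filter had few reads and were not tested, and the treatment of reads that match several copies limits the level of every member. The cause of these shifts was not tested, beyond fewer samples in the fits that leave out a library or a group.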
